A study of Homo sapiens with 6 samples.

Results

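The comparison described here set the Twist line against the control line on the arrays of cells given Cmp302, which are 4 of the 6 arrays of the series, 2 of each line. Both lines derive from HMLE, human mammary epithelial cells that have been immortalised. The control line (ctrl) had been infected with a pBabe-shGFP retrovirus, which carries a hairpin against GFP, and the Twist line with a pBabe-Twist retrovirus. Every cell of the main comparison had received Cmp302, a compound given only as a code name. Its levels were 5 µM and 10 µM, each for 6 h, by the titles and the treatment protocol. By the source names and the treatment tags they were instead 2 µM for 4 h or 8 h. Below, the arrays are called 5 µM and 10 µM after their titles, and whether the step between them is one of dose or of time cannot be told apart. The members were chosen by title alone and were paired by level, and each line and level has 1 array. The question was which line differences hold at both levels, and how wide they are beside known epithelial and mesenchymal genes. The labels do not say whether either line was a clone or a pool. In bulk RNA, fewer cells of a type and less RNA per cell cannot be told apart.

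Twist is a basic helix-loop-helix factor known as a driver of the epithelial-mesenchymal transition (EMT), in which epithelial cells lose their junctions and apical-basal polarity and take on the matrix and cytoskeleton of mesenchymal cells. E-cadherin (CDH1) holds epithelial cells together and is silenced early in the programme, while factors such as ZEB1 and ZEB2 bind E-box sequences and repress epithelial genes. In mammary cultures the epithelial state also includes basal keratins and genes of squamous differentiation.

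Signals are deposited log2 values, in which 1 unit is a 2-fold difference. Values under a floor at 3.71 were set to it, and where a line lay at the floor on both arrays the difference is a bound. A gene counted as measured if it lay above the floor on both arrays of at least 1 line, which left 12316 of 19775 genes. The line difference is the Twist signal minus the control signal at the same level. The size of a gene is the smaller of its 2 differences, with its sign, and a gene is called higher or lower where both differences passed 2-fold the same way. A linear model (limma) with the level as a factor was also fitted over the 4 arrays. A gene's own error in this fit is the change of its line difference between levels, not a spread between replicates. That change has 1 residual degree of freedom. Limma combined it with a spread pooled over the tested genes, worth 13.74 degrees of freedom. The SE and p-values given for single genes therefore rest mostly on that pooled spread. With 2 arrays against 2 an exact permutation test of a single gene cannot give a two-sided p under 0.333, so none is given.

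Between 11646 and 11841 genes lay above the floor on each of the Cmp302 arrays. Across 12730 genes, which are not independent replicates, the signals of the 2 levels correlated at r = 0.997 in the control line and 0.996 in the Twist line, and those of the 2 lines at 0.875 at 5 µM and 0.87 at 10 µM. RNA integrity was read from the control probe sets of GAPDH and ACTB, as the 3′ signal minus that of the middle. This contrast was 0.45 and 0.36 log2 units on the control and Twist arrays at 5 µM. At 10 µM it was 0.84 and 0.45. The 5 µM pair was thus the better matched, and counts over that pair alone are printed beside the main lists. Of 20 markers of blood, endothelial, fat, muscle and nerve cells, 18 were on the array and 14 of those were not measured, PTPRC, CD3E, CDH5 and VWF among them. The endothelial marker PECAM1 (3.82 and 3.80 on the control arrays, 7.20 and 7.54 on the Twist arrays) and the fat cell marker FABP4 (by 3.04 and 2.85) were higher, while CD14 (-0.75 and -0.64) and DES (-0.18 and -0.26) did not reach 2-fold.

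A total of 2726 genes held a 2-fold line difference at both levels. They comprised 1325 higher genes (10.8% of those measured) and 1401 lower genes (11.4%). At 5 µM alone 3074 of the measured genes passed 2-fold and at 10 µM alone 3604, so the held genes were 88.7% of the first list and 75.6% of the second. No gene passed 2-fold in opposite directions at the 2 levels. Another 348 genes passed at 5 µM only and 878 at 10 µM only. Across all measured genes the differences at the 2 levels correlated at r = 0.971, as a description over genes, and 87.4% had the same sign. In the held genes the median change of the line difference between levels was 0.27 log2 units, beside a median width of 1.98. The limma fit called 3600 genes higher (29.2% of 12345 tested) and 3714 lower (30.1%), which included all 2726 held genes. Since that fit called 59.2% of all genes tested, the 2-fold rule is used for the counts below. All gene lists and symbol families below had been chosen with earlier results of these data known. Their shares, set beside the 10.8% and 11.4% of all measured genes, are therefore a description and no test.

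**Figure D1:**
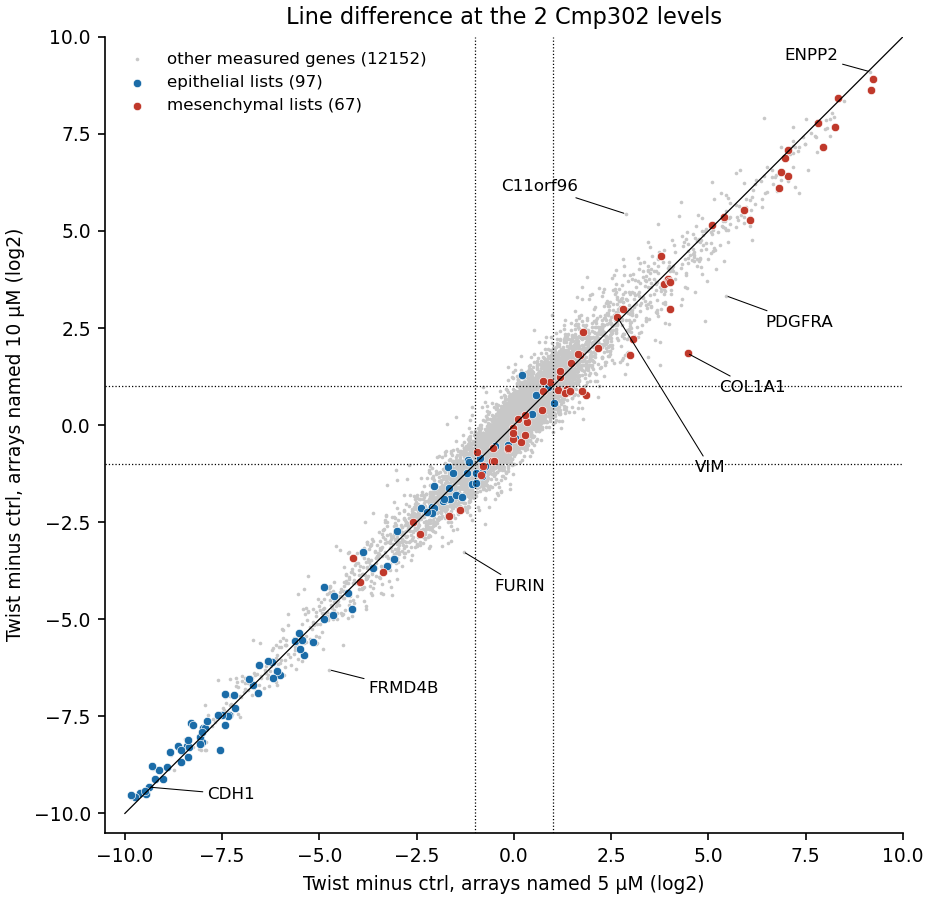
Line difference (Twist minus ctrl, log2) of each measured gene on the arrays named 5 µM (x axis) and 10 µM (y axis). Blue points are the 97 measured members of the epithelial lists and red points the 67 of the mesenchymal lists, the solid line marks equal differences and dotted lines mark 2-fold. Epithelial genes lie along the lower left diagonal down to -9.58, and COL1A1, PDGFRA and C11orf96 stand off the diagonal.

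Genes of epithelial adhesion were lower in the Twist line. CDH1 read 13.10 and 13.03 log2 units in the control line at 5 and 10 µM, and lay at the floor of 3.71 on both Twist arrays. Its difference was at most -9.39 and -9.32. Its other measured probe set had a mean difference of -1.87, and with the median over probe sets its size was -5.56, still lower. EPCAM, an epithelial cell adhesion molecule, read 12.72 and 12.83 against the floor on both Twist arrays. The lines did not overlap for either gene. All 19 measured genes of epithelial adhesion and polarity were lower, against 11.4% of all measured genes, with a median size of -6.69 log2 units where the median over all measured genes was 0. In 13 of the 19 the Twist line lay at the floor on both arrays. They included the P-cadherin gene CDH3 (11.58 and 11.45 against 4.25 and 3.99), the vesicle trafficking GTPase RAB25 (12.01 and 11.39 against the floor), the protease inhibitor SPINT2 (12.26 and 12.07 against the floor) and MPZL2, a junctional adhesion protein (12.12 and 11.98 against the floor). The smallest losses of this list were in the polarity gene CRB3 (5.41 and 4.79 against the floor) and the membrane protease PRSS8 (5.38 and 5.32 against the floor), both of which had low signals in the control line, so their bound cannot be wide.

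Most measured desmosome and tight junction genes were lower, and fewer of the hemidesmosome genes. Of 12 measured desmosome genes, which anchor keratin filaments at cell contacts, 9 were lower (75%, beside 11.4% of all measured genes). The desmosomal cadherin DSC2 had 12.09 and 12.25 in the control line and the floor in the Twist line, the armadillo protein PKP2 had 11.72 and 11.62 against the floor, and desmoplakin (DSP) had 12.37 and 12.26 against 5.03 and 4.78. DSG2, another desmosomal cadherin, had 13.19 and 13.36 against 11.71 and 11.57, and so kept a high signal in the Twist line. PERP, EVPL and PKP1 did not reach 2-fold at 5 µM, with differences of -0.96, -0.81 and -0.82. Over the 10 µM pair alone all 12 desmosome genes were lower. Of 9 measured tight junction genes 6 (66.7%) were lower. The widest were MARVELD3 (at most -7.16 and -7.29), the claudin CLDN7 (at most -6.58 and -6.91), cingulin (CGN, -5.50 and -5.75) and occludin (OCLN, -5.53 and -5.34). The weakest measured probe sets of MARVELD3 and CGN had mean differences of only -0.23 and -0.13. The scaffold TJP1 had differences of -0.17 and -0.52. CLDN1 was the one member of this tight junction list with a positive difference at both levels, 0.20 and 1.30, and is taken up again beside the DMSO arrays below. By symbol, 2 of 7 measured claudins were lower and 1 was higher. The higher one was CLDN11, which is outside the list, with a size of at least 6.30 on its 1 measured probe set. Of 7 measured genes of hemidesmosomes and laminin-332, which fix basal cells to the basement membrane, 3 (42.9%) were lower. These were ITGB4, LAMB3 and ITGA6, with sizes of at most -6.10, of -5.43 and of -1.34. Integrin alpha 3 (ITGA3), CD151, plectin (PLEC) and dystonin (DST) were not called, with sizes of 0, 0.28, 0.56 and 0.88. For DST the probe set without a suffix gave the opposite sign, a limma difference of -0.95.

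Keratins and squamous differentiation genes were lower in most cases. Of 22 measured genes of the cornified envelope, S100 family and kallikreins, 21 were lower (95.45%, beside 11.4% of all measured genes), with a median of -7.96. This list held chosen members of those families. By symbol, 7 of 15 measured S100 genes were lower, with a median of -0.515, and 6 of 9 measured kallikreins, with a median of -6.11. S100A7, an antimicrobial protein of skin, read 13.45 and 13.29 in the control line and the floor in the Twist line. The cornified envelope precursor SPRR1B read 13.55 and 13.24, the protease KLK7 13.32 and 13.17, and the iron carrier binder LCN2 13.20 and 13.13, each against the floor. SERPINB5 was the one member not called, with 13.06 and 13.13 against 12.09 and 11.89. Among 10 measured keratins of the list 8 (80%) were lower, and by symbol 11 of 16 measured keratins (68.75%) were lower and 1 was higher. The basal keratin KRT14 had 13.56 and 13.37 against 4.12 and 3.88, a limma difference of -9.47 ± 0.19 (SE, 4 arrays, adjusted p = 4.14e-14), and its partner KRT5 had 12.82 and 12.58 against the floor. The simple epithelial keratins differed in what remained: KRT8 had 12.05 and 12.19 against 5.87 and 5.68, KRT18 kept 9.26 and 9.36 in the Twist line, and KRT7 kept 12.11 and 12.25 (differences of -1.19 and -0.90). Of 6 measured luminal markers 5 (83.3%) were lower, with CD24, a surface glycoprotein used to sort mammary cells, at 13.65 and 13.63 against 8.27 and 7.71. CD44, its usual counterpart in such sorts, had 13.45 and 13.61 against 13.16 and 13.14, and its sign turned to positive with the median over its probe sets. GATA3, a luminal transcription factor, had differences of 0.56 and 0.77.

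The transcription and splicing factors of epithelial cells were in part lost and in part kept. Of 12 measured, 9 were lower (75%, beside 11.4% of all measured genes). The splicing regulator ESRP1 had 12.34 and 11.96 in the control line and the floor in the Twist line, and the factors GRHL2 (11.79 and 11.73) and EHF (11.74 and 11.88) fell to the floor likewise. The weakest measured probe set of EHF had a mean difference of only -0.22. OVOL1 and OVOL2, repressors of the mesenchymal state, had bounds of -3.07 and -3.44 and of -4.15 and -4.73. TFAP2C had differences of -0.04 and -0.08, GRHL1 of -0.86 and -0.84, and TFAP2A of -0.76 and -1.04. In the limma fit TFAP2C was not called (adjusted p = 0.715).

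Host transcripts of 2 microRNA loci were also lower, named here after their values were seen. miR-205 and the miR-200 family are known to repress ZEB1 and ZEB2. MIR205HG, the host of miR-205, had 7.98 and 8.00 in the control line and the floor in the Twist line. MIR200CHG, the host of miR-200c and miR-141, had 6.37 and 6.44 against the floor. The arrays do not measure the mature microRNAs, whose sequences (RefSeq, GRCh38.p14) are given with the seed, bases 2 to 8, in capitals. They are shown because these are the products of the 2 lost hosts.
hsa-miR-205-5p: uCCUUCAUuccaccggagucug
hsa-miR-200c-3p: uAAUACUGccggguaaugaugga
hsa-miR-141-3p: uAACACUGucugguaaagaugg

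Over all epithelial lists together, 80 of 97 measured genes were lower (82.5%, beside 11.4% of all measured genes) and none was higher. The 97 had a median of -5.44, and the Twist line lay at the floor for 53 of them. Over the 5 µM pair alone 82 of 101 measured were lower and 1 higher, and over the 10 µM pair alone 85 of 97 were lower and 1 higher. Limma called 5 of these 97 genes higher. The change of the line difference between the levels was small beside its width, with a median of 0.19 log2 units against 6.51 in the 80 lower genes, and none of them changed by 2-fold between levels. The widest such change was in MAL2, a protein of apical transport, whose difference was -7.54 at 5 µM and -8.36 at 10 µM.

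**Figure D2:**
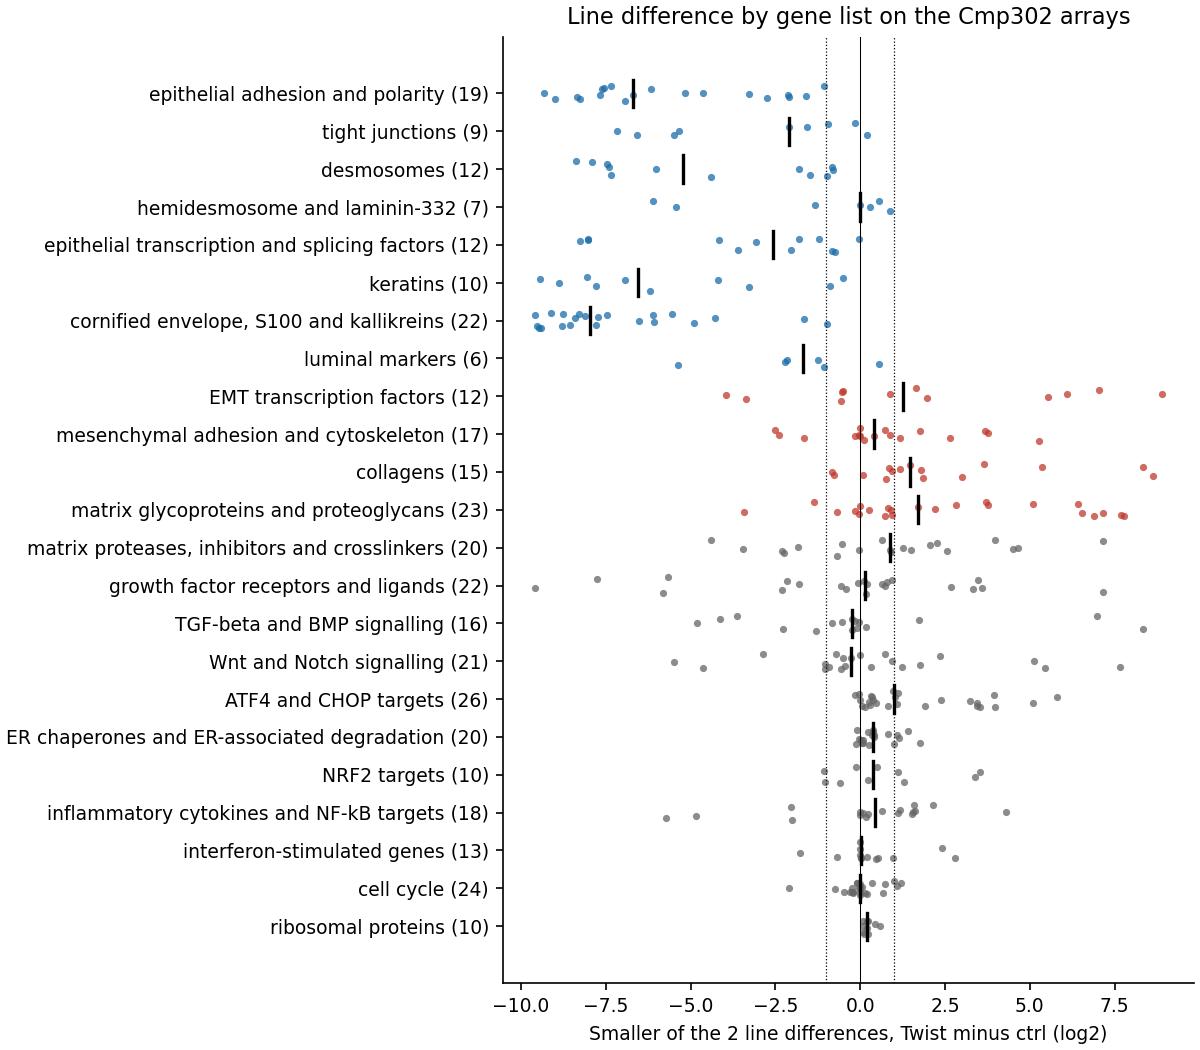
Size of the line difference (log2, the smaller of the 2 levels) for each measured member of 23 gene lists, with the number measured in brackets. Blue rows are epithelial lists, red rows mesenchymal lists and grey rows the others, black bars are medians and dotted lines mark 2-fold. The list of cornified envelope, S100 and kallikrein genes has the lowest median, -7.96, and the mesenchymal lists spread on both sides of 0.

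The mesenchymal lists were split. Over the 4 mesenchymal lists 33 of 67 measured genes were higher (49.2%, against 10.8% of all measured genes) and 7 were lower, with a median of 0.94. Over the 5 µM pair alone 40 were higher and 7 lower. These lists had been chosen with earlier results of these data known, so the shares are a description. TWIST1 itself read 10.51 and 10.48 on the control arrays and 11.96 and 11.35 on the Twist arrays. Its differences were 1.45 and 0.87, and it missed 2-fold at 10 µM, while limma called it higher (1.16). It was read by 1 probe set, and the sources used here do not say whether that probe set reads the viral transcript, so its level does not check the labels. Its relative TWIST2 had 8.03 and 7.90 against 10.20 and 9.88. The homeobox factor PRRX1 lay at the floor on both control arrays and read 12.94 and 12.62 in the Twist line. FOXC2, a forkhead factor, rose from the floor to 10.76 and 10.79. ZEB1 had 5.93 and 6.61 against 12.76 and 12.72, a limma difference of 6.47 ± 0.20 (SE, 4 arrays, adjusted p = 4.47e-13), and ZEB2 had 5.14 and 5.13 against 11.06 and 10.68. With the median over probe sets ZEB2 had a size of 0.67 and was not called. RUNX2 was also higher (1.66 and 1.83), while LEF1 (11.34 and 11.38 against 7.40 and 7.35) and KLF8 (7.21 and 7.48 against 3.85 and the floor) were lower. SNAI1 lay at the floor on all arrays, and SNAI2 had 12.53 and 12.57 against 11.99 and 11.98, which limma called lower (-0.57 ± 0.13, SE, 4 arrays, adjusted p = 0.00128).

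Structural genes of the mesenchymal state varied widely. Vimentin (VIM), the intermediate filament of mesenchymal cells, read 11.15 and 10.98 on the control arrays and 13.81 and 13.77 on the Twist arrays, which limma gave as 2.72 ± 0.13 (SE, 4 arrays, adjusted p = 5.1e-11). N-cadherin (CDH2) had 10.95 and 10.75 against 12.14 and 11.98, a difference just past 2-fold at each level. CDH11, a cadherin of osteoblasts and fibroblasts, went from the floor to 9.78 and 8.98, and the surface marker THY1 from 8.37 and 8.46 to 12.38 and 12.14. Both VIM and CDH2 were therefore already well expressed in the control line, and their lines did not overlap. Of 17 measured genes of mesenchymal adhesion and cytoskeleton 6 (35.29%) were higher and 3 (17.65%) lower, beside 10.8% and 11.4% of all measured genes. Smooth muscle actin (ACTA2) was higher by 1.77 and 2.40 and the myosin light chain MYL9 by 3.77 and 4.35. The adhesion molecules MCAM (9.20 and 9.03 against 6.62 and 6.53) and L1CAM (9.31 and 9.86 against 7.65 and 7.53) and the actin binder TAGLN (9.34 and 9.27 against 6.94 and 6.47) were lower. Caldesmon (CALD1), palladin (PALLD), the nucleotidase NT5E and tropomyosin TPM1 passed neither the 2-fold rule nor limma (adjusted p of 0.242, 0.449, 0.378 and 0.5).

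**Figure D3:**
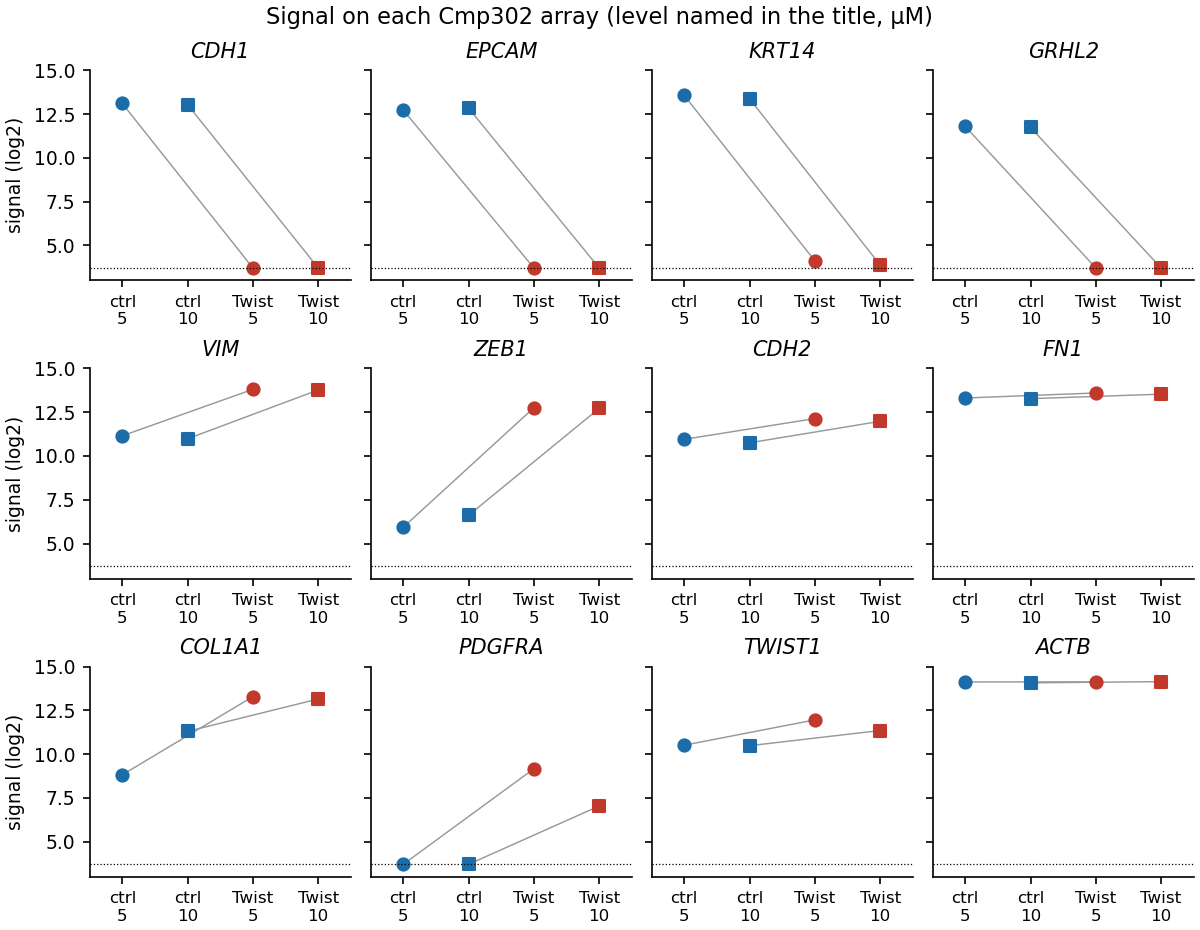
Signal (log2) of 12 genes on each of the 4 Cmp302 arrays, blue for the control line and red for the Twist line, circles for the 5 µM and squares for the 10 µM arrays. Grey lines join the arrays of 1 level and the dotted line is the floor at 3.71. CDH1, EPCAM and GRHL2 lie at the floor on both Twist arrays, FN1 and ACTB differ by under 0.30 between lines, and the COL1A1 difference narrows at 10 µM.

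Collagens and matrix proteins were higher in part. Of 15 measured collagen genes of the list 9 were higher (60%, beside 10.8% of all measured genes) and none lower, with a median of 1.465. By symbol, 10 of 21 measured collagens were higher and none lower, with a median of 0.93. COL3A1 lay at the floor on both control arrays and read 12.90 and 12.35 in the Twist line. COL6A1 had 4.22 and 4.20 against 12.56 and 12.62, COL6A2 the floor against 9.12 and 9.06, and COL5A2 8.59 and 8.61 against 12.46 and 12.25. The basement membrane collagens COL4A1 and COL4A2 were not called, with differences of -0.79 and -1.05 and of 0.33 and 0.08. Of 23 measured matrix glycoproteins and proteoglycans 12 (52.2%) were higher and 2 (8.7%) lower. Fibrillin-1 (FBN1) went from the floor to 11.54 and 11.48, the proteoglycans lumican (LUM) to 11.66 and 10.86, decorin (DCN) to 10.75 and 10.12 and biglycan (BGN) to 10.69 and 10.60, and SRGN from 3.96 and 4.19 to 12.22 and 11.88. Fibronectin (FN1), often used as an EMT marker, had 13.31 and 13.27 against 13.60 and 13.53 and was not called by limma (adjusted p = 0.0771). MFAP5, a microfibril protein, had 7.84 and 7.12 against the floor, and thrombospondin-1 (THBS1) had 13.13 and 13.26 against 11.76 and 11.08. COL3A1, LUM and MYL9 lost their calls when probe sets with a suffix for shared or mixed sequence were left out, with sizes of 0 and 0.27 for the first 2.

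Matrix turnover and receptor genes differed in both directions. Of 20 measured proteases, inhibitors and crosslinkers 9 were higher and 5 lower (45% and 25%, beside 10.8% and 11.4% of all measured genes). The collagen processing enhancer PCOLCE went from the floor to 10.93 and 10.87 and the plasminogen activator PLAT from 6.12 and 6.38 to 11.30 and 10.89. MMP10, MMP9, PLAU and MMP14 were lower, with sizes at most -4.40, at most -3.45, -2.29 and -2.25, while MMP2 was higher by 2.77 and 2.57. By symbol, 7 of 11 measured matrix metalloproteinases were lower and 2 higher. Among 22 measured growth factor receptors and ligands 5 (22.7%) were higher and 7 (31.8%) lower. The collagen receptor DDR2 (floor against 10.88 and 11.04), PDGFRA, PDGFRB, EPHB6 and FGFR1 (8.21 and 8.00 against 11.82 and 11.76) were the higher ones. The lower ones were FGFBP1, a carrier that releases FGF from matrix, with 13.56 and 13.30 against the floor, TGFA (11.48 and 11.46 against the floor), FGFR3 (11.25 and 11.14 against 5.03 and 5.34), ERBB3, HBEGF, EPHA1 and EPHA2. EGFR and MET had sizes of 0.17 and -0.06.

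In TGF-beta and BMP signalling 3 of 16 measured genes were higher and 5 lower (18.8% and 31.2%, beside 10.8% and 11.4% of all measured genes). The BMP antagonist GREM1 went from the floor to 12.19 and 12.06 and the co-receptor TGFBR3 from the floor to 10.81 and 10.68. BMPR1B, BMP2, the activin binder FST, ID1 and SMAD7 were lower, with sizes of at most -4.80 for BMPR1B and of -4.13, -3.63, -2.29 and -1.31 for the others. The receptors TGFBR1 and TGFBR2 had sizes of -0.10 and -0.24. In Wnt and Notch signalling 6 of 21 measured genes (28.6%) were higher and 5 (23.8%) lower. The ligand WNT5A went from the floor to 11.75 and 11.37 and WNT5B from the floor to 9.06 and 8.85, while the Wnt antagonist SFRP1 had 9.67 and 9.19 against 3.73 and the floor and the Notch ligand JAG2 8.89 and 9.14 against 4.25 and 4.15. HEY1, a Notch target, had 5.66 and 5.54 against 11.11 and 11.47. With the median over probe sets the SFRP1 size was -0.06.

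In width, the epithelial losses stood at the end of the whole distribution and the mesenchymal gains did so only in part. Of the 30 lower genes of at least 8 log2 units, 22 (73.3%) were in the epithelial lists, and of the 9 of at least 9 units, 8 were, the other being FGFBP1. The share was 20.5% of 283 genes at 4 units and 5.71% of all 1401. Most of these sizes are bounds set by the control signal, so the genes have no order among themselves. The 7 lower genes of at least 8 units in none of the lists, named after their values were seen, were FXYD3, TNS4, FAM110C, TRIM29, CA2, IL1RN and FAM83A, each at the floor on both Twist arrays. FXYD3, a regulator of the sodium pump, had 12.98 and 12.57 in the control line, and IL1RN, the interleukin-1 receptor antagonist, 11.80 and 12.05. The epithelial lists had been chosen partly for genes known to be lost in EMT and with earlier results of these data known, so their place at this end is a description.

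Among higher genes the mesenchymal share was 3 of 6 at 8 units or more, 20.6% of 34 at 7 units and 8.67% of 173 at 4 units. The highest size was that of ENPP2, the secreted enzyme autotaxin that makes lysophosphatidic acid, which lay at the floor on both control arrays and read 12.87 and 12.81 on the Twist arrays, which is at least 548-fold higher at both levels. The other genes of highest size, several of them bounds with no order, were PRRX1, COL3A1, GREM1, COL6A1 and MAP1B, the syndecan SDC2 (at least 8.24 and 7.94), the kinase RPS6KA2 (at least 8.12 and 7.89), PNMA2 (at least 8.03 and 7.86), FRMD3, FBN1 and the basement membrane protein nidogen-1 (NID1). The weakest measured probe sets of RPS6KA2, COL6A1 and FRMD3 had mean differences of only 0.15, 0.26 and 1.71. MAP1B, a microtubule-associated protein best known from neurons, had 5.04 and 5.28 against 13.22 and 13.32. Counting each gene itself, 56 genes had a gain at least as wide as that of ZEB1, 75 as that of ZEB2, 339 as that of VIM, 1055 as that of CDH2, 1586 as that of TWIST1 and 3571 as that of FN1. Of the 339, 316 were outside the mesenchymal lists. VIM, CDH2 and FN1 already had high signals in the control line, so these counts do not compare how far each gene could rise. Whether the top of the signal range bounds such gains was not tested. The median of the epithelial lists, -5.44, was matched or passed by 163 lower genes, 114 of them outside these lists.

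**Figure D4:**
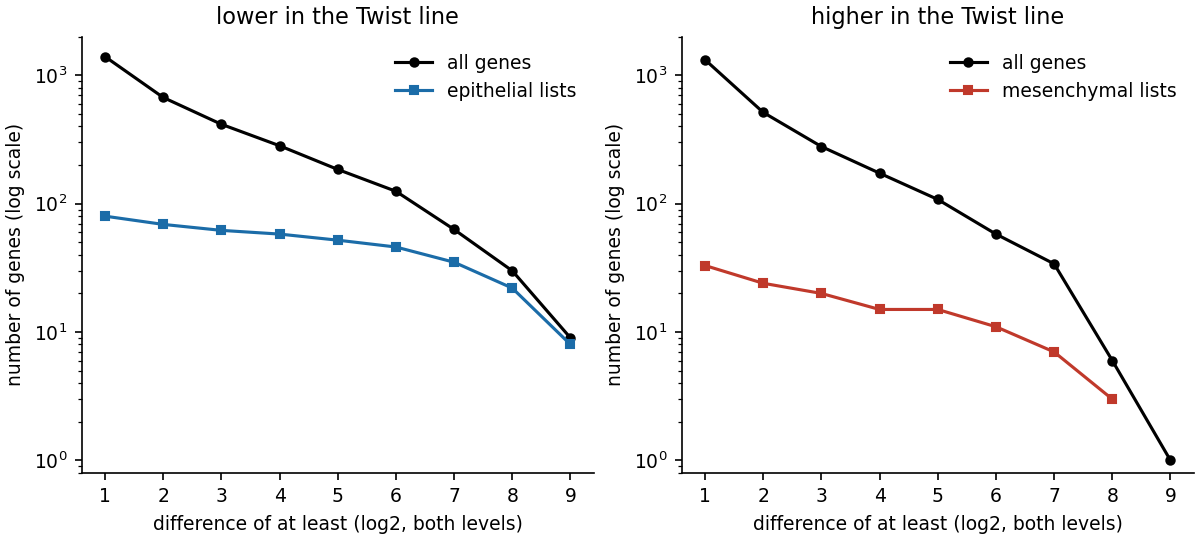
Number of genes (log scale) whose line difference reached at least the size on the x axis (log2) at both levels, lower in the Twist line on the left and higher on the right. Black circles count all genes and coloured squares the members of the epithelial (blue) or mesenchymal (red) lists. At 8 log2 units 22 of 30 lower genes are epithelial list members and 3 of 6 higher genes are mesenchymal ones.

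Lower genes formed runs along chromosomes. Gene order was taken from RefSeq (GRCh38.p14) over 11503 measured protein-coding genes. The longest run of adjacent lower genes had 7 members on chromosome 1, SPRR1A, SPRR3, SPRR1B, SPRR2B, SPRR2G, S100A9 and S100A8, which belong to the epidermal differentiation complex. The kallikreins KLK5, KLK6, KLK7, KLK8, KLK10 and KLK11 made a run of 6 on chromosome 19, and 5 neighbouring keratin genes were lower both on chromosome 12 and on chromosome 17. On chromosome 18, DSC3, DSC2, DSG4, DSG3 and DSG2 made a run of 5. The longest runs of higher genes had 5 members, ZNF14, ZNF506, ZNF253, ZNF93 and ZNF682 on chromosome 19 being one. A lower gene had a lower neighbour in 30.9% of cases, where 21% of all these genes had one, and a higher gene a higher neighbour in 30.6%, where 19.6% of all had one. Of 369 measured zinc finger genes by symbol, 79 (21.4%) were higher and 18 lower, beside 10.8% and 11.4% of all genes. Of 30 measured histone genes 10 were lower and 1 was higher. Probe sets of such families and of clustered paralogs can share sequence, so single members are uncertain, and the part of this in the counts was not tested.

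E-box sequences in promoters were looked at because ZEB and Twist factors are known to bind such sites. The window ran from 250 bases before to 50 after the start of each gene (RefSeq, GRCh38.p14). The motifs searched were CACCTG, then CATCTG and CANNTG, which includes both others, each on either strand. Windows were to be printed for CDH1, EPCAM, ZEB1 and CDH2, and the table held those of ZEB1 and CDH2, which are higher genes with and without a match. Capitals mark CACCTG or its reverse complement CAGGTG, as found in the windows.
ZEB1 promoter, chr10:31318167-31318466, plus strand: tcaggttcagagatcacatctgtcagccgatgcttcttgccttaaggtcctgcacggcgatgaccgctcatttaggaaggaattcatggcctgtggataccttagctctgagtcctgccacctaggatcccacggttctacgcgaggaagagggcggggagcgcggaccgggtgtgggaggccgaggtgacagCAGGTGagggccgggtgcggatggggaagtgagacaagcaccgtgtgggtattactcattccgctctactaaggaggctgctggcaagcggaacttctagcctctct
CDH2 promoter, chr18:28177081-28177380, minus strand: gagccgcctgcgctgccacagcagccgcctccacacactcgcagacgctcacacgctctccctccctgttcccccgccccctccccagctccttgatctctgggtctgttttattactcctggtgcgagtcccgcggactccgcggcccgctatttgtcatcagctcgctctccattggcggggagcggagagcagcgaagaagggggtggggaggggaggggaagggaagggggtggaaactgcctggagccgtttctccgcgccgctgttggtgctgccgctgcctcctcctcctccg
The ZEB1 window had 1 match and the CDH2 window had 0.

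Over all measured genes CACCTG stood in 31% of windows of lower genes, 15.7% of higher genes and 16.8% of genes not called. Only 77.5% of the lower and 77.6% of the higher genes had a window, under the minimum of 80% set for such a check, so those shares are void. The scope was then narrowed to 11081 measured protein-coding genes off chromosome 8, a choice made after that coverage and those shares had been seen. In this scope 81.7% of lower, 84.6% of higher and 87.7% of uncalled genes had a window. The motif stood in 328 of 1031 windows of lower genes (31.8%), in 148 of 967 of higher genes (15.3%) and in 1269 of 7611 of genes not called (16.7%), beside 20.6% of all 27305 windows of the table. CATCTG stood in 10.4%, 9.93% and 8.8% of the same 3 groups, and CANNTG in 67.9%, 59.5% and 58.9%. The windows' median GC content was 65.3%, 65% and 65.3%. In windows with under 10 CpG dinucleotides CACCTG stood in 33.2% of lower, 15% of higher and 21.2% of uncalled genes, and in windows with 30 or more in 33.5%, 15.2% and 15.4%. Lower genes that were also lower by 2-fold under DMSO had it in 35.2% of windows, and lower genes that missed 2-fold there in 20.9%. For the epithelial lists fewer than 80% of genes had a window, so no share is given. These are matches of letters and not binding sites, and no test was run on the shares.

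Some held differences changed between the levels. In 110 of the 2726 held genes (4.04%) the line difference changed by 2-fold or more, and the genes named here were chosen after their values were seen. COL1A1 had 8.82 in the control line at 5 µM and 11.30 at 10 µM, against 13.29 and 13.15 in the Twist line, so that its difference went from 4.46 to 1.85. The receptor PDGFRA lay at the floor in the control line and had 9.17 and 7.04 in the Twist line, and TMEM100 7.48 and 5.25. FURIN, a proprotein convertase, had differences of -1.30 and -3.26. C11orf96 lay at the floor in the control line and had 6.59 and 9.15 in the Twist line, and the receptor IL21R 5.59 and 7.52. With 1 array a level none of these changes has a replicate check.

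Genes of stress responses also differed between the lines on these arrays. The lists of this paragraph had been chosen with earlier results of these data known, so their counts are a description. Of 26 measured ATF4 and CHOP targets, which are induced when protein synthesis is slowed under stress, 13 were higher and none lower. The higher ones were 50%, where 10.8% of all measured genes were higher and 11.4% lower. DDIT3, which encodes CHOP, had 5.62 and 5.38 in the control line against 11.44 and 11.96 in the Twist line. ATF3 had 5.01 and 4.83 against 10.10 and 11.09, STC2 8.43 and 8.31 against 12.41 and 12.51, and SESN2 6.25 and 6.63 against 10.21 and 10.67. Of 20 measured ER chaperones and degradation genes 4 (20%) were higher, and HSPA5, the main ER chaperone, had differences of 0.10 and 0.35. Of 10 measured NRF2 targets 4 (40%) were higher and 2 (20%) lower, HMOX1 with 4.31 and 4.70 against 7.85 and 8.35. Of 18 measured inflammatory genes 8 (44.4%) were higher and 4 (22.2%) lower. The cytokines IL1A (10.37 and 10.30 against 4.33 and 4.58) and IL1B (9.66 and 9.47 against 4.30 and 4.62) were lower, while IL6 (floor against 8.02 and 9.45) and the chemokine CCL2 (by 2.38 and 2.16) were higher. IL1A and ATF3 did not keep their calls when suffixed probe sets were left out. Of 13 measured interferon-stimulated genes 2 (15.4%) were higher, OASL and IRF1, and OAS1 was lower. In 22 of the 23 stress genes with a held difference it was wider at 10 µM than at 5 µM (95.7%, beside 55.6% of all held genes, 47.5% of the epithelial and 42.5% of the mesenchymal ones). Of 24 measured cell cycle genes 3 were higher (MCM2, E2F1 and MCM5) and 1 was lower (E2F8). These shares, 12.5% and 4.17%, were near or under the 10.8% and 11.4% of all measured genes. By the 2-fold rule none of 10 ribosomal protein genes was called, while limma called 6 of them higher.

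The DMSO arrays, 1 of each line and none of them part of the Cmp302 comparison, show which line differences were also present without the compound. There 1488 genes were higher by 2-fold (11.9% of 12510) and 1687 lower (13.5%). Of the 1325 genes higher on the Cmp302 arrays 838 (63.2%) were higher by 2-fold under DMSO as well, and of the 1401 lower genes 1076 (76.8%) were lower. The epithelial lists had a median difference of -5.91 under DMSO beside -5.50 and -5.57 with the compound. The 10 measured ribosomal protein genes had a median of -0.70 under DMSO beside 0.20 and 0.55 with the compound. For the 56 measured stress genes the median was -0.33 beside 0.46 and 1.05. CDH1 differed by at most -9.53 under DMSO, ZEB1 by 6.93 and VIM by 1.52. Only 13 genes passed 2-fold the other way under DMSO. The 10 of them that were higher with the compound were TRIB3, OASL, PCK2, SDF2L1, CXCL3, ZFAND2A, ATF7IP2, CCL20, HERPUD1 and ASNS, and the 3 that were lower were EEIG2, AGBL3 and LRIG3. TRIB3, a target of CHOP, had 8.21 against 6.56 under DMSO and 8.06 and 8.09 against 11.52 and 12.20 with Cmp302.

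A limma interaction over all 6 arrays tested whether the line difference with Cmp302 differed from that under DMSO, and called 1854 genes higher (14.9% of 12478) and 1999 lower (16%). It rests on 1 DMSO array of each line, whose 3′ contrasts were 0.28 in the control line and 0.96 in the Twist line, the widest gap of the 3 pairs. GAPDH, a housekeeping gene, passed it with 1.94 ± 0.24 (SE, 6 arrays, adjusted p = 0.000802), having 13.58 and 12.32 under DMSO, and the part of the 3′ contrast in these calls was not tested. Of the higher genes 311 passed the interaction in the same direction and lay within 2-fold under DMSO. They were 2.53% of all measured genes, and held 14 of the 56 measured stress genes (25%) and 6 of the 31 inflammatory and interferon genes (19.4%). They held 0 of the 97 epithelial and 0 of the 67 mesenchymal genes. Of the lower genes 232 did so, 1.88% of all measured. They held 2 of the 97 epithelial genes (2.06%), ITGA6 and DSG2, and 1 of the 67 mesenchymal ones (1.49%), THBS1, shares near that of all genes. The epithelial lists had a median of -5.91 under DMSO, and genes past 2-fold there were left out beforehand. The low epithelial shares are therefore set largely by that rule. HEY1 had a line difference of 1.44 under DMSO and of 5.45 and 5.93 with the compound (interaction 4.24 ± 0.39, SE, 6 arrays, adjusted p = 0.000162). HES1, another Notch target, had 9.80 against the floor under DMSO and 9.72 and 9.43 against 8.34 and 8.40 with the compound. CLDN1 had 10.63 against 5.84 under DMSO and thus differed there by -4.79, beside 0.20 and 1.30 with the compound (interaction 5.53 ± 0.40, SE, 6 arrays, adjusted p = 5.4e-05). Its 2 measured probe sets disagreed in sign on the Cmp302 arrays, with mean differences of -0.71 and 0.75. The stress and inflammation lists had been chosen with earlier results of these data known, so their shares above are a description.

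**Figure D5:**
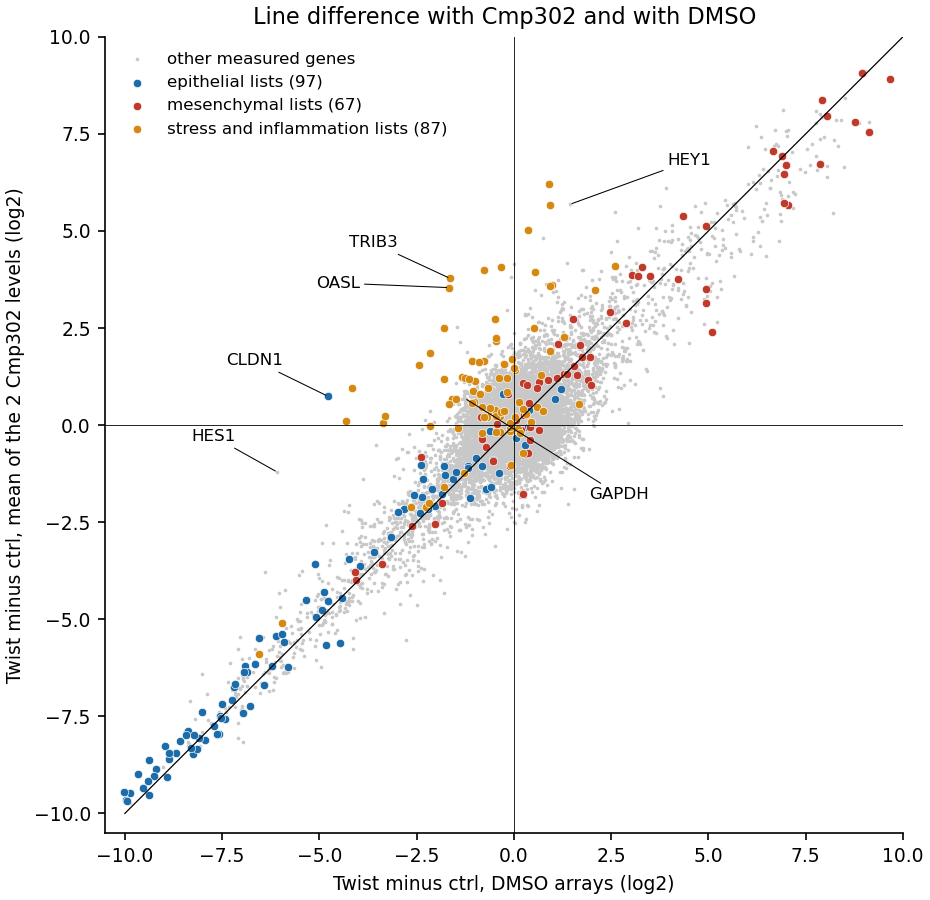
Mean line difference over both Cmp302 levels (y axis, log2) against the line difference on the DMSO arrays (x axis, log2) for each measured gene. Blue, red and orange points are members of the epithelial, mesenchymal, and stress and inflammation lists, and the diagonal marks equal differences. Most epithelial genes lie near the diagonal and CLDN1 does not, while TRIB3, OASL and HEY1 lie above it.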

How the data were processed

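The submitters measured total RNA of 2 HMLE lines on Affymetrix U133 Plus arrays, 1 array per line and treatment. The submitters' processing notes name GCOS 1.2, while summarisation and normalisation are not given in the sources used here. From their range, the deposited values were taken as log2 signals, since the labels name no unit. Of 54675 probe sets 62 controls were left out, and the 41091 with 1 gene symbol in the platform annotation gave 19775 genes (1801 had several symbols and 11721 none). Each array was shifted to a common median over the brighter probe sets, values under the median of all values (3.71) were set to it, and each gene was read by its probe set of highest mean signal.

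Tests used limma 3.58.1 in R 4.3.3, lmFit and eBayes with a signal trend, on genes that exceeded the floor on 2 or more of the fitted arrays, with adjusted p (Benjamini-Hochberg) called under 0.05. The fit over the 4 Cmp302 arrays had level and line, that over all 6 had treatment, line and line by treated; each leaves 1 residual degree of freedom. The fits were also run on simulated data with independent noise drawn from their own variances, no floor applied and 200 changed genes. A change of 1 log2 unit was recovered in 96.5% of these by the line fit and in 39.5% by the interaction. Such data cannot check how the fits behave on floored arrays without replicates. Rules named the 12 highest and 12 lowest genes by size whose probe sets did not disagree in sign, and the 4 widest members of each list. They also named any measured epithelial or mesenchymal member and 14 fixed genes. A further rule took the 8 widest genes in each direction that passed the interaction outside the stress and inflammation lists. Other named genes fell under none of these rules, and only some of them are marked as chosen after their values were seen. Those not marked include JAG2, HES1, EGFR, MET, HSPA5, TGFBR1, TGFBR2, MMP2 and PLAU. They are to be read as chosen with their values known, and no check of them under the alternatives is given. The 24 lists (442 symbols, 409 on the array) and 26 symbol families were chosen with earlier results of these data known. Labels name no separate cultures, so adjusted p-values measure only the spread between these arrays. The promoter scope was narrowed after its first coverage and shares were seen. Alternatives changed the scaling, floor, probe set rule, filter, trend, threshold, pairing and arrays. The number of arrays limits the precision.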

Additional observations from a re-analysis of the deposited data

Results flagged for a closer look

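The results here are named genes whose line difference with Cmp302 differed from that under DMSO by the limma interaction over 6 arrays (log2 units, Cmp302 minus DMSO). Each rests on 1 DMSO array of each line, and what moved the values was not tested. Among genes higher in the Twist line, the gap to the control line was wider with Cmp302 for MAP1B (1.18), ANXA6 (1.48), CHST2 (1.07) and VIM (1.2). It was narrower for LUM (-1.57), LINC01085 (-1.31), ZEB2 (-1.22), CLDN11 (-1.22), SCG2 (-1.14) and NID1 (-1.07). The loss was deeper with Cmp302 for SORL1 (-1.62), TMEM117 (-1.28), IL18 (-1.19), CGN (-1.16) and CD24 (-0.83). It was shallower for ADTRP (1.6), SERPINA3 (1.31), LAMB3 (1.07) and GJB2 (0.88). GAPDH had 1.94, beside a 3′ contrast that was highest on the Twist DMSO array. With the median over probe sets the sign turned for MAP1B (-0.77), VIM (-0.10), SORL1 (0.15) and ZEB2 (0.67), with suffixed probe sets left out for ZEB2 (1.16), and with the 65th percentile floor for CGN (0.24). None of these values has a replicate check.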

How the results depend on the processing

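Held counts of 1325 higher and 1401 lower genes moved by over 1.5 times only with the threshold: 2300 and 2309 genes at 1.5-fold, 515 and 673 at 4-fold. Leaving out each array gave 1370 to 1586 higher and 1422 to 1571 lower genes. Of the higher and lower calls, 70% and 72.2% were shared with the median over probe sets, the lowest shares among the alternatives that kept the threshold. The limma line counts of 3600 and 3714 went to 564 and 817 with no filter and to 1705 and 1854 over all 6 arrays. Without 1 array they were 979 to 2281 and 1478 to 2191, lowest without the control 10 µM array, and the cause was not tested. The interaction counts of 1854 and 1999 went to 44 and 77 with no filter, to 1182 and 1226 on the deposited scaling, and to 927 lower with the median over probe sets.

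Reversed line differences were CD44 (0.81 with the median over probe sets), DST (-0.95 without suffixed probe sets), and RPS18 (-0.0189) and RPS3 (-0.0556) over all 6 arrays. The median of the other cell type markers, of which 4 were measured, went from 1.33 to -0.09 with the median over probe sets. Reversed interactions were CGN (0.24, 65th percentile floor), MAP1B (-0.77), SORL1 (0.15), VIM (-0.10) and ZEB2 (0.67) with the median over probe sets, and ZEB2 (1.16, suffixed probe sets left out). Leaving out suffixed probe sets also ended the 2-fold calls of ANXA6, ATF3, COL3A1, IL1A, ITGB4, LUM and MYL9. The titles carry no replicate numbers, so no replicate block was fitted; the arrays were paired by level, and without level in the model limma called 3498 and 3691 genes. The low end of the signal range limits wide losses to bounds. Whether its top limits gains was not tested.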
